A study of Homo sapiens with 22 samples.

Results

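The GREB1 locus was examined for binding of ESR1, the estrogen receptor alpha, in a cell line from an endometrial adenocarcinoma, Ishikawa. The locus was taken by position, as every peak overlapping chr2:11620000-11800000 of GRCh37 (hg19), a stretch of 180 kb. It held 205 of the 356467 peaks in 20 peak lists, and these merged into 39 of 93612 regions when peaks that overlapped by at least 1 bp were joined. The lists carry no gene names, and the position of each site relative to the exons and introns of GREB1 was not analysed here.

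Each list came from 1 chromatin immunoprecipitation sequencing (ChIP-seq) library, made with an anti-FLAG antibody from clonal lines whose ESR1 carries a FLAG tag. ESR1 was either wild type (WT), in 2 clones, or carried the D538G substitution, in 3 clones, and each clone was a single line with 2 replicates per treatment. All cells had been kept in hormone-deprived medium for at least 5 days and then received either 10 nM 17β-estradiol (E2) or the solvent DMSO for 1 h. The groups thus held 4 WT DMSO, 4 WT E2, 6 D538G DMSO and 6 D538G E2 lists. The 2 input libraries were not analysed here.

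ESR1 is a nuclear receptor that binds DNA, mostly at distal enhancers, after estradiol has settled in its ligand-binding domain. D538G lies in that domain, next to the helix that closes over the hormone, and is known for receptor activity without hormone. GREB1 is one of the classic estrogen-induced genes of breast and endometrial cancer cells, and its protein is itself found in complexes with ESR1 on chromatin. Several ESR1-bound enhancers around the gene are known from breast cancer cells.

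List lengths ran from 45 to 54903 peaks. WT DMSO held the shortest lists, with 45, 51, 1080 and 29118 peaks. WT E2 lists held 5757 to 35344 peaks, D538G DMSO lists 1619 to 54903 and D538G E2 lists 1977 to 49223. Read depth is not given in the sources used here, so a missing peak says only that none passed the authors' threshold in that library. To set lists of unequal length beside each other, each peak was also given its percentile within its own list, the share of that list's peaks with a signal value no higher than its own. The signal value is the authors' measure of a peak's strength and was compared only within a list.

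The treatment of 1 list is uncertain. The authors' peak names contain the string Ctl in all 5 replicate 1 DMSO lists and in 1 list filed as E2, that of D538G clone 2 replicate 1. The list is called here by its label. Some results are also given without both clone 2 replicate 1 lists, an alternative added after this was seen. They include whole-list differences in peak number, counts of regions differing in presence and the orders of sites 4, 6 and 9 by signal value.

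The 10 regions described in most detail are called sites 1 to 10, numbered along the chromosome. Site 4, at chr2:11638027-11639709, was the most widely bound, with a peak in 19 of 20 lists. Site 9, at chr2:11679138-11682025, lay 41.2 kb to its right and had a peak in 18 lists. Site 6, at chr2:11655122-11656498, had a peak in 16 lists, and sites 5 (chr2:11652482-11653665) and 8 (chr2:11671813-11673234) had one in 15 lists each. Site 2, at chr2:11628036-11629902, lay at −9.59 kb from site 4, to its left, and had a peak in 12 lists. Site 1 (chr2:11621546-11624019) and site 10 (chr2:11771471-11772062), near the 2 ends of the window, had one in 11 lists each. Site 3 (chr2:11631496-11632050), with 4 lists, is named because it had the smallest p between D538G treatments. Site 7 (chr2:11664265-11665226), with 9 lists, was chosen after its values were seen.

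**Figure D1:**
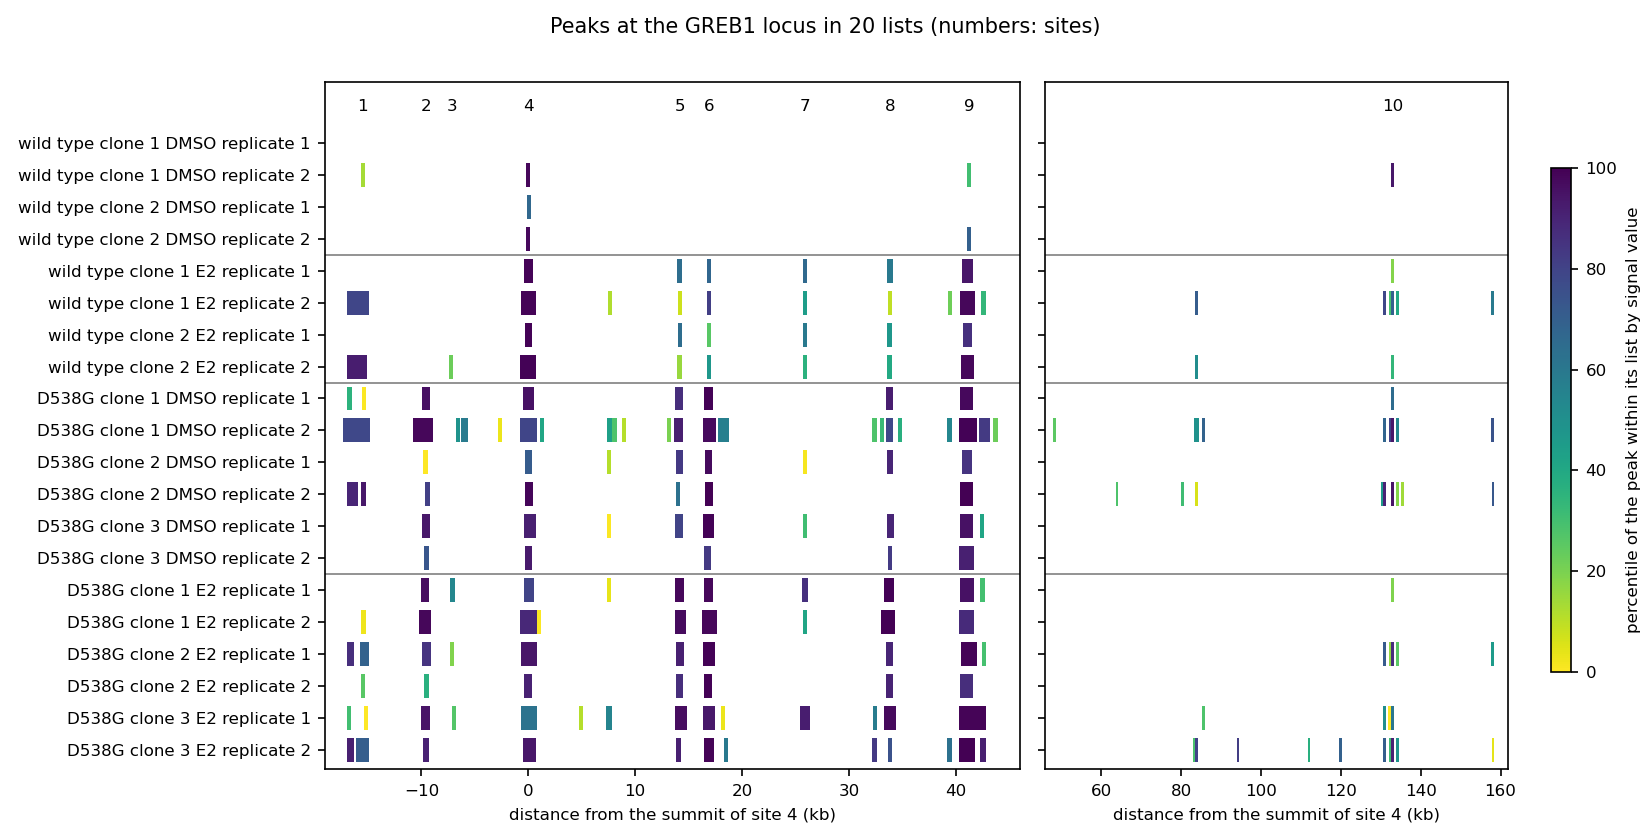
Peaks at the GREB1 locus in each of the 20 lists, as distance in kb from the median summit of site 4, with a narrower scale on the left and a wider one on the right. Each bar is 1 peak (short peaks are widened to be visible), its colour gives the percentile within its own list by signal value, and the numbers name the sites. Site 4 is filled in 19 lists, while site 2 is filled in D538G lists and in no WT list.

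In WT cells without hormone few peaks were called at the locus, in lists that were mostly short. The lists of 51, 45, 1080 and 29118 peaks held 0, 1, 2 and 4 peaks there, spread over 4 regions in all. Site 4 was the region present in most of them, in 3 of 4 lists. Site 9 was present in 2 lists, and sites 1 and 10 in 1 list each, the list of 29118 peaks. The percentile of site 4 was 98.1 and 98.0 in the lists of 29118 and 1080 peaks, and 66.7 in the list of 45, where it was the only peak of the locus.

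After E2, the WT lists held 6, 7, 10 and 16 peaks at the locus (9.75 ± 4.50, SD, n = 4), against 1.75 ± 1.71 (SD, n = 4) with DMSO. Every E2 list held more than any DMSO list. The difference of 8 peaks gave p = 0.0286 in a two-sided exact permutation test, the smallest that 4 lists against 4 can give, and 0.258 after Benjamini-Hochberg adjustment over 8368 windows of the same size. Of those windows, 11.1% reached an unadjusted p under 0.05 and 0% an adjusted one, and 154 had a larger difference than the GREB1 window. The list lengths moved in the same direction, and their part in the difference was not tested.

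E2 and DMSO libraries of the same clone and replicate number form pairs, and all 4 WT pairs had more locus peaks with E2, by 5, 7, 8 and 12. Taken as pairs, the same mean difference gave an exact p of 0.125, the smallest 4 pairs can give. When each list was held to its 1000 strongest peaks, the locus kept 2 peaks in each of the 4 E2 lists and 0, 1, 1 and 2 in the DMSO lists, a difference of 1.00 (exact permutation p = 0.143). Without the DMSO lists of 45 and 51 peaks the difference was 6.75 (exact permutation p = 0.133), where 4 lists against 2 cannot give a p under 0.05.

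In all, 6 regions were present in each of the 4 WT E2 lists, namely sites 4 to 9. Among them, sites 5, 6, 7 and 8 were in 4 of 4 E2 lists and 0 of 4 DMSO lists (Fisher's exact test, p = 0.0286 each, adjusted p = 0.306). They were 4 of the 9 locus regions tested, in a comparison where 9.34% of all 29233 regions tested reached an unadjusted p under 0.05 and 0% an adjusted one. In the E2 list of 31108 peaks, the 2 strongest peaks of the locus were sites 4 and 9, at percentiles of 99.5 and 98.1. Sites 5, 6 and 8 stood far lower there, at percentiles of 15.3, 46.9 and 39.6. Over the 4 E2 lists their percentiles ran from 7.81 to 64.8, 26.1 to 81.6 and 9.64 to 59.4, in the same order. The DMSO group without these sites includes the lists of 45 and 51 peaks. Without those 2 lists no locus region reached an unadjusted p under 0.05, nor did any of all 29230 regions tested. Fisher's exact test cannot reach it with 4 lists against 2, so this says nothing about the locus.

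D538G lists without hormone held many peaks at the locus. The 6 lists had 5, 8, 9, 9, 16 and 30 peaks there (12.8 ± 9.15, SD, n = 6), and the lowest of them was above the highest WT DMSO list. The difference from WT DMSO was 11.1 peaks (exact permutation p = 0.0190, adjusted p = 0.907), in a comparison where 4.01% of 8400 windows reached an unadjusted p under 0.05 and 0% an adjusted one. The median window differed by 0.833 peaks in the same direction, and 139 windows differed by more than GREB1. Without the 2 D538G clone 2 replicate 1 lists, 1 of which is in this comparison, the difference was 12.1 (exact permutation p = 0.0159).

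**Figure D2:**
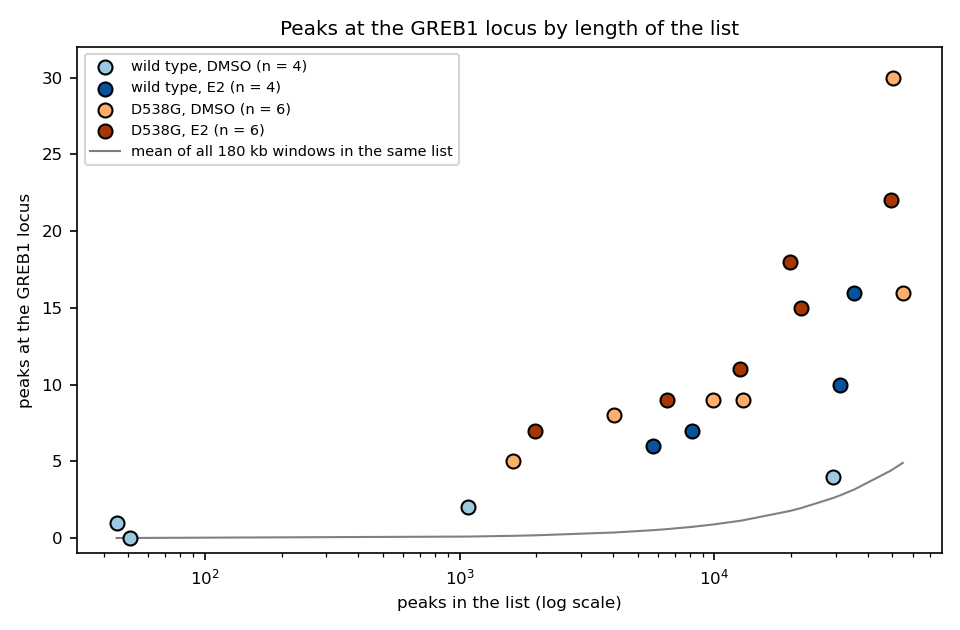
Number of peaks at the GREB1 locus against the number of peaks in the list (log scale), 1 point per list, coloured by group, with the mean over all windows of 180 kb in the same lists as a grey line. In 19 of the 20 lists the locus lies above that mean, and the D538G DMSO list of 1619 peaks holds 5 locus peaks against 4 in the WT DMSO list of 29118.

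Longer lists mostly had more locus peaks, though not in every case, and the part of list length in the genotype difference was not tested. The WT DMSO list of 29118 peaks, far longer than the others of its group, held 4 locus peaks. The D538G DMSO lists of 1619 and 4032 peaks held 5 and 8. Among the 1000 strongest peaks of each list, the D538G DMSO lists kept 4, 2, 4, 3, 4 and 5 locus peaks and the WT DMSO lists 0, 1, 1 and 2. That difference was 2.67 (exact permutation p = 0.0143), although 2 of the WT lists hold fewer than 1000 peaks in all. The share of windows at such a p in these shortened lists is not given here. By Fisher's exact test of presence, 14.1% of 1572 regions in them reached an unadjusted p under 0.05, and none an adjusted one. Over whole lists, leaving out any 1 WT DMSO list raised the exact permutation p of the difference of 11.1 peaks over 0.05, to at most 0.0714. Leaving out both lists of 45 and 51 peaks gave a whole-list difference of 9.83 (exact permutation p = 0.179).

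Under DMSO, the presence of 4 sites differed between genotypes at an unadjusted p under 0.05. Sites 2 and 6 were in 6 of 6 D538G DMSO lists and 0 of 4 WT DMSO lists (Fisher's exact test, p = 0.00476, adjusted p = 0.585). Sites 5 and 8 were in 5 of 6 against 0 of 4 (Fisher's exact test, p = 0.0476, adjusted p = 1). Of 14 locus regions tested these 4 reached an unadjusted p under 0.05, as did 3.57% of all 32172 regions, and none reached an adjusted one (0% of all regions). Counted by clone, each of these 4 sites was present in 3 of 3 D538G clones and in 0 of 2 WT clones under DMSO, for which the exact p is 0.10, the smallest that 3 clones against 2 allow. Leaving out any 1 list left 4 locus regions at an unadjusted p under 0.05, against 2.87% to 7.82% of all regions tested. Leaving out the lists of 45 and 51 peaks brought the number to 2, against 0.821% of 32171 regions. The number was again 4, against 4.91% of all regions, without the D538G clone 2 replicate 1 lists.

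The regions that recurred in WT lists with hormone also recurred in D538G lists without it. In at least 2 WT E2 lists, 9 regions were present, and all 9 were present in at least 2 D538G DMSO lists, which together held 14 such regions. Over all regions, the same held for 73.5% of the 26600 present in at least 2 WT E2 lists. Of the 9, sites 4, 6 and 9 were in 6 of 6 D538G DMSO lists, and sites 5 and 8 in 5. Sites 1 and 10 were in 3 of 6. Site 7 and the region at chr2:11722113-11723232 were in 2 of 6. The 2 peaks of site 7 stood at percentiles of 1.29 and 30.8. Those of the other region came from the D538G DMSO lists of 50382 and 54903 peaks. Site 3 was in 1 WT E2 list and in no D538G DMSO list. No locus region was found in WT lists only, against 3.78% of all regions. Of the 39 regions, 16 occurred in at least 1 WT list and 23 (59.0%) in D538G lists only, against 56.3% of all regions, and 19 of these 23 were in a single list, as were 72.7% of all regions found in D538G lists only. D538G had 12 lists and WT 8. Of those 19, 10 came from the D538G clone 1 DMSO replicate 2 list, 4 from clone 2 DMSO replicate 2, 3 from clone 3 E2 replicate 2, and 1 each from clone 1 E2 replicate 2 and clone 3 E2 replicate 1. Their percentiles ran from 0.764 to 82.1.

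Between D538G cells with and without E2, the number of locus peaks differed by less than the spread between lists. The 6 D538G E2 lists held 7, 9, 11, 15, 18 and 22 peaks (13.7 ± 5.72, SD, n = 6), which overlapped the DMSO lists throughout. The difference of 0.833 peaks gave an exact permutation p of 0.879 (adjusted p = 1), where 0.32% of 9677 windows reached an unadjusted p under 0.05 and 0% an adjusted one. The direction was not stable, since without single lists the difference ran from −0.833 to 4.27. Without both D538G clone 2 replicate 1 lists it was −0.4 (exact permutation p = 0.992). The 6 pairs differed by 2, −21, 7, −9, 9 and 17 peaks, and the pair that lost 21 went from a DMSO list of 50382 peaks to an E2 list of 6542. No locus region out of 20 tested differed in presence by Fisher's exact test at an unadjusted p under 0.05, against 0.02% of all 44920 regions, and 0% of regions differed at an adjusted one. Without both D538G clone 2 replicate 1 lists the number was again 0 of 20, against 0.293% of 44386 regions.

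The E2 difference itself was compared between genotypes over pairs. It was 8 ± 2.94 peaks (SD, n = 4 pairs) in WT and 0.833 ± 13.7 (SD, n = 6 pairs) in D538G. The genotypes differed by −7.17 peaks (exact permutation p = 0.371, adjusted p = 1; 2.7% of 10122 windows reached an unadjusted p under 0.05 and 0% an adjusted one). By presence at single sites, the mean change per pair was lower in D538G by 1 at site 6, where all 4 WT pairs gained a peak (exact permutation p = 0.00476, adjusted p = 0.776). At sites 5 and 8 it was lower by 0.833 (exact permutation p = 0.0476, adjusted p = 1). The D538G DMSO lists already held a peak at site 6 in 6 of 6 lists and at sites 5 and 8 in 5 of 6, so hardly any D538G pair could gain one, and these values restate the difference under DMSO. These were 3 of 20 locus regions tested, against 2.83% of 52609 regions at an unadjusted p under 0.05 and 0% at an adjusted one. Without the D538G clone 2 replicate 1 pair, the difference was −8.4 peaks (exact permutation p = 0.341), and that of presence was −1 at site 6 and −0.8 at sites 5 and 8 (exact permutation p = 0.00794, 0.0476 and 0.0476).

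With E2 in both genotypes, the difference in locus peaks was within the spread between lists. D538G lists held 3.92 more peaks than WT lists (exact permutation p = 0.290, adjusted p = 1; 1.43% of 9356 windows reached an unadjusted p under 0.05 and 0% an adjusted one). The median window differed by −0.167 peaks, and 73 windows had a larger difference with D538G higher than GREB1 had. Held to the 1000 peaks of highest −log10 p, a setting added after the data were seen, the difference was 2.67 (exact permutation p = 0.0190). With the 1000 peaks of highest signal value it was 1.83 (exact permutation p = 0.105). The share of windows at such a p is not given here for either setting. In that order, 6.22% of 2026 and 7.29% of 2155 regions reached an unadjusted p under 0.05 by Fisher's exact test of presence. None reached an adjusted one. Over whole lists but without the D538G clone 2 replicate 1 lists, the difference in locus peaks was 3.65 (exact permutation p = 0.349). Of the 19 locus regions tested, 1 differed in presence. This was site 2, in 6 of 6 D538G E2 lists and 0 of 4 WT E2 lists (Fisher's exact test, p = 0.00476, adjusted p = 1), where 1.21% of 35729 regions reached an unadjusted p under 0.05 in either direction, 0.325% with D538G higher, and 0% an adjusted one. Without the D538G clone 2 replicate 1 lists the number was again 1 of 19 locus regions, against 1.46% of 35093 regions.

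Site 2 was therefore present in all 12 D538G lists and in none of the 8 WT lists. Its peak in the D538G clone 2 DMSO replicate 1 list had a −log10 p of 10.7, near the lowest deposited value of 10.0. With a −log10 p of at least 20 required, that list has no peak at site 2. Over the whole series 704 regions were present in all 12 D538G lists, and 4 of these (0.568%) were absent from every WT list, so that site 2 is 1 of 4 regions with this pattern. Among the 10 D538G lists left without the clone 2 replicate 1 pair, 4 regions again had it. The other 3 were chr2:134250266-134251284, chr9:101639234-101640142 and chr9:138270156-138273124. The WT lists of 29118, 31108 and 35344 peaks had no peak at site 2, while D538G lists of 1619 and 1977 peaks did. The nearest WT peak lay 1.61 kb to the right, at chr2:11631515-11631740, in the WT clone 2 E2 replicate 2 list, and the nearest on the left was 4.12 kb away.

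Its standing within the D538G lists was high in most of them. The percentile of site 2 was 95.8, 98.3, 0.322, 80.9, 93.4 and 73.4 in the DMSO lists, in the order of clones 1 to 3 with 2 replicates each. In the E2 lists, in the same order, it was 96.7, 98.3, 84.8, 36.4, 94.6 and 91.0. The 2 lowest values were both from clone 2, where the DMSO replicate 1 peak ranked 4020 of 4032 and the E2 replicate 2 peak 1259 of 1977. Clone 1 gave the highest values under both treatments. The summits of site 2 spread over 229 bp, from 11629175 to 11629404.

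**Figure D3:**
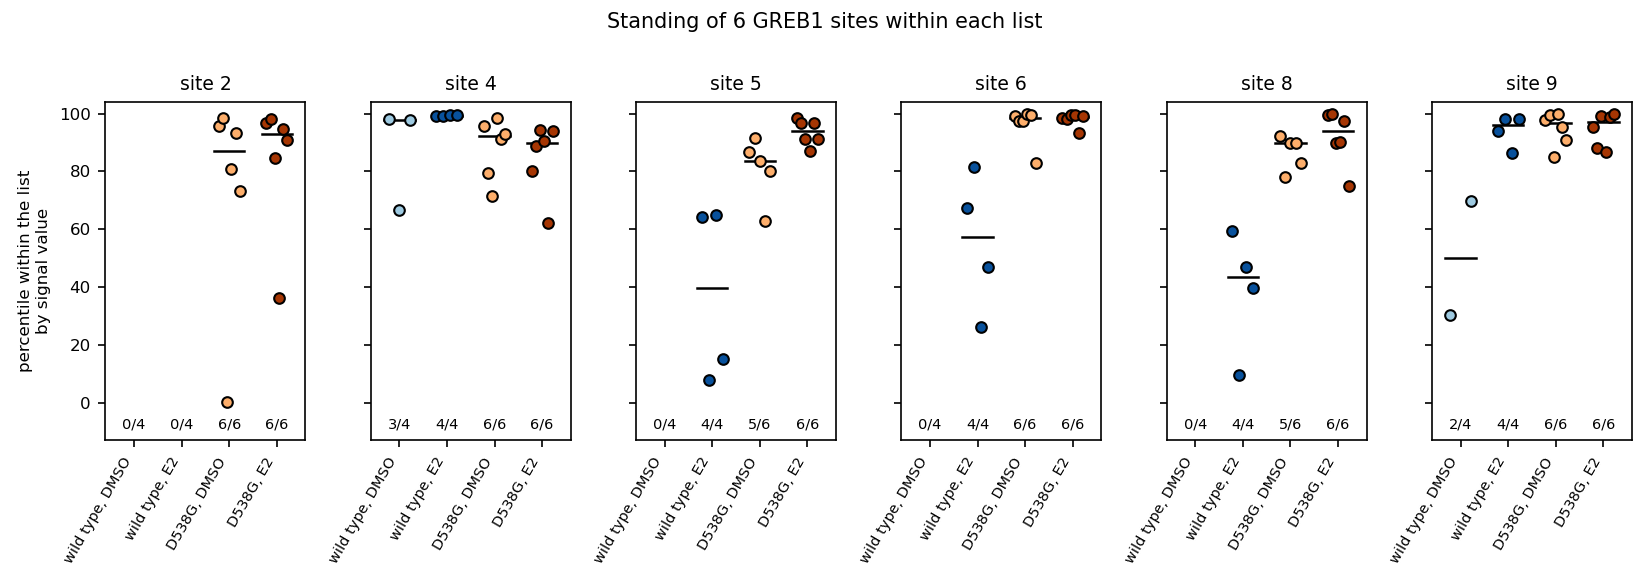
Percentile within the list, by signal value, of the strongest peak at 6 sites of the GREB1 locus, 1 point per list with a peak there, by group, with the group median as a bar. The fraction under each group gives the lists with a peak out of all lists of that group. At site 6 the D538G points lie at 83.1 or above and the WT points at 81.6 or below, while at site 4 the WT E2 points lie together at the top. How many other regions separate as site 6 does is not given here.

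The order of the sites within a list differed between genotypes. List lengths differ, so these ranks are given as a description without a test. In all 7 WT lists with a locus peak, site 4 was the strongest peak of the locus. In the 12 D538G lists the strongest was site 6 in 6, site 9 in 3, site 8 in 2 and site 4 in 1. Without the D538G clone 2 replicate 1 lists, these numbers were 4, 3, 2 and 1 of 10. Ranked by −log10 p instead of signal value, site 4 again led all 7 WT lists, and the D538G lists were led by site 6 in 5, site 8 in 3, and sites 4 and 9 in 2 each.

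Site 6 showed the change of order most plainly. It ranked above site 4 in 0 of 4 WT lists that had both, and in 11 of 12 D538G lists (10 of 12 by −log10 p, and 9 of 10 without the clone 2 replicate 1 lists). Its percentile was 67.4, 81.6, 26.1 and 46.9 in the WT E2 lists. In the D538G DMSO lists it was 99.3, 97.3, 97.4, 99.8, 99.5 and 83.1, and in the D538G E2 lists 98.4, 98.2, 99.4, 99.4, 93.4 and 99.1. The highest WT E2 value, 81.6, lay just under the lowest D538G value, 83.1, and E2 and DMSO lists of D538G overlapped. The share of all regions that separate in this way is not given here. In the D538G clone 2 E2 replicate 2 list, site 6 ranked 12 of 1977 peaks.

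Sites 5 and 8 also stood higher in most D538G lists than in WT E2 lists. Site 5 ranked above site 4 in 5 of 11 D538G lists (2 by −log10 p) and site 8 in 4 of 11 (3 by −log10 p), and neither did in any of 4 WT lists. At site 8 the 4 WT E2 lists gave percentiles from 9.64 to 59.4 and the 11 D538G lists with a peak from 75.0 to 99.8. By −log10 p the gap at site 8 was narrow, with 38.3 to 79.8 in WT E2 and 80.8 to 99.8 in D538G. The share of all regions with such a gap is not given here. Both D538G clone 1 E2 lists had site 8 as the strongest peak of the locus, at ranks 72 of 12566 and 14 of 6542. At site 5 the WT E2 lists ran from 7.81 to 64.8 and the 11 D538G lists from 63.0 to 98.4, so the genotypes overlapped there in a narrow range. Within D538G, site 5 was missing from 1 DMSO list, the 1619-peak list of clone 3 replicate 2, and site 8 from the 54903-peak list of clone 2 replicate 2.

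Site 4 itself stood high in both genotypes, and its standing depended on the measure. By signal value it lay between percentiles 99.0 and 99.5 in the 4 WT E2 lists, and between 62.1 and 98.6 in the 12 D538G lists (median 91.0). By −log10 p the D538G lists gave 93.0 to 99.8 (median 98.8). The 2 measures parted at this site in D538G lists, where the −log10 p per unit of signal was 7.40 to 16.6 (median 13.5), against 1.77 to 5.12 (median 4.33) in WT lists. Compared with peaks of the same list whose signal lay within 10% of its own, the −log10 p of site 4 was at or above that of 99.7% to 100% of them in D538G lists and of 20% to 95.8% in WT lists. The 20% and the ratio of 1.77 came from the WT DMSO list of 45 peaks, with 10 such peaks. The other WT lists gave 80.5% to 95.8% and ratios of 3.48 to 5.12. At site 9 the median of this share was 62.2% in D538G and 59.9% in WT. The measures also parted elsewhere, since the share was 98.8% to 99.5% at site 8 in WT lists and had a median of 90.3% at site 6 in D538G lists. The sources used here do not give what the signal value is relative to, nor whether an input served in calling every list. The part of peak calling in the standing of site 4 was not tested.

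Site 9 was strong in hormone-treated WT and in both D538G groups. Its percentile was 30.3 and 69.7 in the 2 WT DMSO lists that had it, 93.9, 98.2, 86.2 and 98.1 in the WT E2 lists, and 85.1 to 99.8 in the 12 D538G lists. It ranked above site 4 in 0 of 6 WT lists and 9 of 12 D538G lists by signal value, but in 3 of 12 by −log10 p (by signal value in 7 of 10 D538G lists without the clone 2 replicate 1 pair). The order of these 2 sites in D538G thus turned with the measure.

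Summits at several sites fell close together in lists from different clones and treatments. The summits of site 4 lay within 59 bp in 19 lists, from 11638838 to 11638897, and those of site 6 within 78 bp in 16 lists. Site 8 spread over 82 bp in 15 lists and site 7 over 102 bp in 9. The WT and D538G summits at sites 4 and 6 overlapped in position.

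Summits spread more widely at sites 5 and 9, over 274 and 383 bp, in 2 groups at each site. At site 5 the groups were 102 bp apart. The left one, from 11652786 to 11652863, held 5 D538G lists, 4 of them DMSO lists and 1 an E2 list, that of clone 3 replicate 2. The right one, from 11652965 to 11653060, held 9 E2 lists, 4 of them WT and 5 D538G, and 1 DMSO list, that of D538G clone 2 replicate 1. Without the D538G clone 2 replicate 1 pair, the left group of site 5 held 1 E2 and 4 DMSO lists and the right group 8 E2 and 0 DMSO lists.

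At site 9 the groups were 211 bp apart. The left group, from 11679754 to 11679831, held 5 lists and the right group, from 11680042 to 11680137, held 13. All 5 lists of the left group were E2 lists, 2 from WT (replicate 1 of both clones) and 3 from D538G (both clone 1 replicates and clone 2 replicate 2). The right group held the other 5 E2 lists and all 8 DMSO lists with a peak there, and 1 of these 5 E2 lists is the one named Ctl. Without the D538G clone 2 replicate 1 pair, the left group held 5 of 9 E2 and 0 of 7 DMSO lists. The lists of the left group had 1977 to 12566 peaks and those of the right group 1080 to 54903. The groups at sites 5 and 9 were set by the largest gap between summits after the data were seen, and are given without a test.

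**Figure D4:**
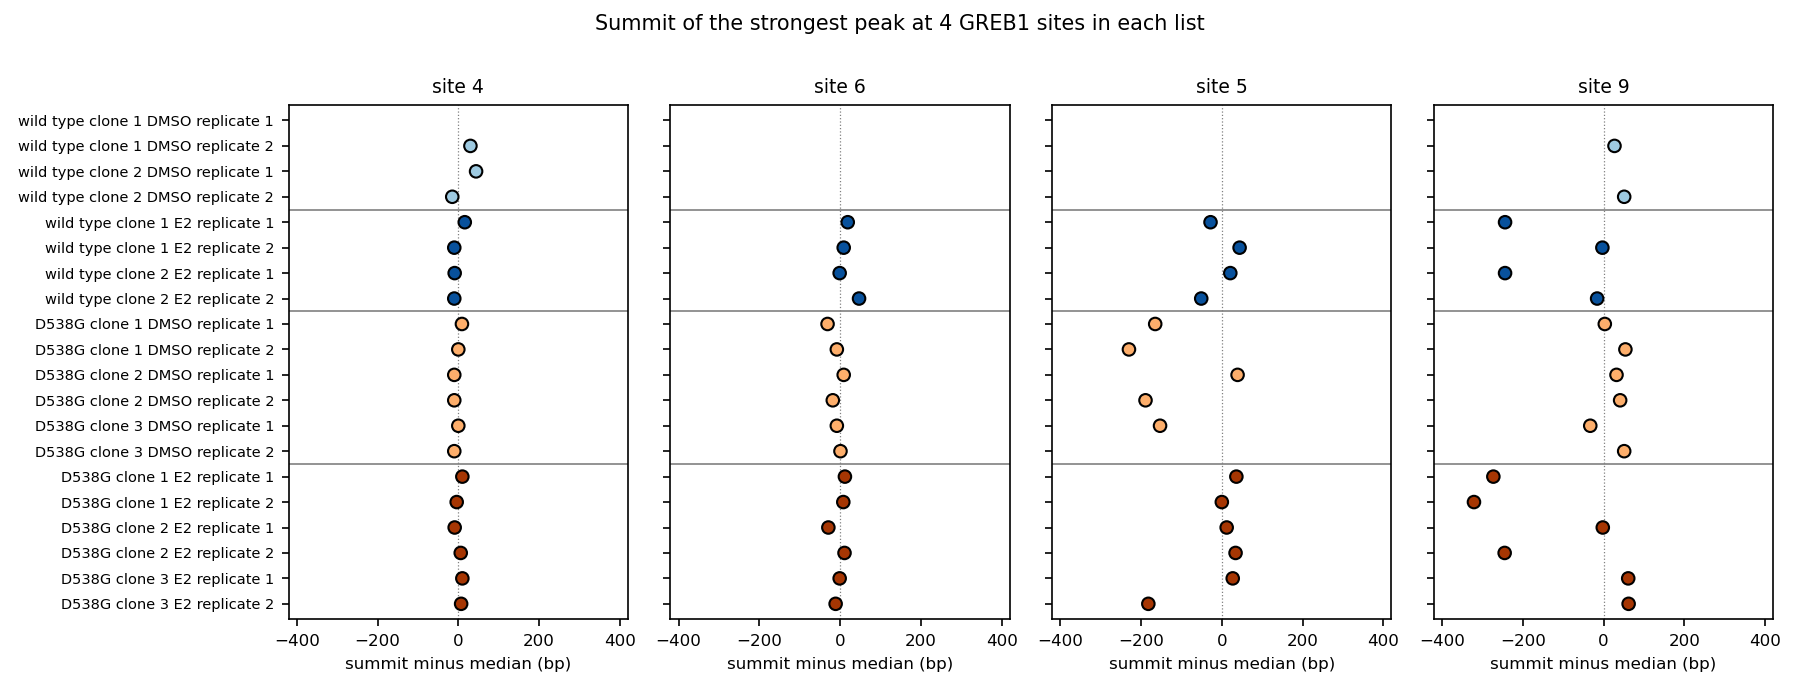
Position of the strongest peak's summit at sites 4, 6, 5 and 9 in each list, in bp from the median summit of the site, coloured by group. Summits of sites 4 and 6 lie within 59 and 78 bp. At site 5 a group of 5 D538G lists, 4 of them DMSO, lies 102 bp to the left of the other 10, and at site 9 a group of 5 E2 lists lies 211 bp to the left of the remaining 13 lists.

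Site 7 had a peak in every hormone-treated WT list and in fewer than all lists of both D538G groups. It was in 4 of 4 WT E2 lists, 0 of 4 WT DMSO lists, 2 of 6 D538G DMSO lists and 3 of 6 D538G E2 lists. Its percentile in the WT E2 lists was 66.3, 44.6, 59.5 and 36.2. In D538G it ran from 1.29 to 92.1. The difference between the genotypes under E2 did not reach an unadjusted p under 0.05.

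Sites 1, 3 and 10 and the smaller regions filled in the rest of the locus. Site 1 held 2 summit positions that long peaks joined, and occurred in 1 WT DMSO, 2 WT E2, 3 D538G DMSO and 5 D538G E2 lists. Site 3 occurred in 1 WT E2 and 3 D538G E2 lists and in no DMSO list (Fisher's exact test in D538G, p = 0.182, adjusted p = 1). Site 10, at 132.9 kb from site 4, was the main region of the right-hand end and occurred in 1, 3, 3 and 4 lists of the 4 groups in the same order. Its percentile was 18.6 to 93.4 in WT and 19.5 to 94.6 in D538G. The median width of the 39 merged regions was 504 bp, from 199 to 2888 bp.

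Set beside the rest of the genome, the locus was dense in peaks. Of 11247 windows of the same size with at least 1 peak, 201 held more than the 205 peaks of GREB1, while the median window held 15. The neighbouring windows of equal size held 44 peaks on the left and 66 on the right. In 3 of 4 WT DMSO lists and in every list of the other groups, the locus held more peaks than the mean window of the same list. The locus count was 3.6 to 11.7 times that mean in the WT E2 lists. In D538G it was 3.27 to 34.6 times the mean in the DMSO lists and 5.01 to 39.7 times in the E2 lists. In the WT DMSO lists of 29118, 1080 and 45 peaks it was 1.54, 20.8 and 249.9 times, the last from 1 peak, and in the list of 51 it was 0.

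Libraries of the same clone shared locus regions between treatments to a varying degree. In the 3 WT pairs with any DMSO peak, every DMSO region was also in the E2 list, 4 of 4, 1 of 1 and 2 of 2. In D538G the shared regions were 7 of 8, 7 of 28, 6 of 8, 6 of 15, 8 of 8 and 5 of 5 of the DMSO regions. As a share of the E2 regions, they were 70%, 77.8%, 46.2%, 85.7%, 47.1% and 26.3%. The 2 pairs with low shares of DMSO regions were those with DMSO lists of 50382 and 54903 peaks.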

How the data were processed

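Each of the 20 precipitated libraries had 1 deposited peak list in the narrowPeak layout, so peaks were called per library by the authors. Bowtie, MACS2, DESeq2 and hg19 are named, without roles or versions, in the submitters' processing notes. The deposited lists give for each peak a signal value, a −log10 p, a −log10 q and a summit offset, and the lowest deposited −log10 p was 10.0. The scale of the signal value is not given in the sources used here. In the replicate 1 lists of D538G clones 1 and 2, under both treatments, the authors' peak names contain "Input", which no other list shows, so the use of input may have differed between lists.

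From these lists, 5 mitochondrial peaks were removed, peaks were merged at 1 bp overlap, and summits were computed as peak start plus offset (Python 3.11.15, pandas 2.3.3, NumPy 2.4.6, SciPy 1.17.1). Peaks per window of 180 kb were compared by two-sided exact permutation tests over libraries. Presence per region was compared by two-sided Fisher's exact tests in regions with peaks in at least 2 of the lists compared. Whether the E2 effect differed by genotype was tested by exact permutation of pairs. All p-values were adjusted by the Benjamini-Hochberg method over all windows or regions of a comparison, and 4 comparisons beside the difference in E2 effect were made. The functions were tested on simulated data. Sites named are up to 8 regions in most lists, and in each comparison of presence the one with the smallest p. The locus, the lists and the tests were chosen with earlier results of these data known.

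E2 and DMSO libraries of 1 clone and replicate number come from the same clonal line and were taken as pairs in an alternative fit. The correlation of paired libraries' deviations from their group means over windows ran from −0.746 to 0.319 in D538G and from −0.560 to 0.785 in WT. Replicates of 1 clone may not be independent cultures, and p-values then measure only the spread between these libraries. No 2 lists were alike beyond a Jaccard index of 0.714. Alternatives were lists held to 1000 peaks, a −log10 p of at least 20, covered bases or merged regions in place of peaks, regions from summits with 100 bp on either side, the replicate block, and each library left out. Lists held to 1000 peaks by −log10 p, the lists of 45 and 51 peaks left out, and both D538G clone 2 replicate 1 lists left out were added after seeing the data.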

Additional observations from a re-analysis of the deposited data

Results flagged for a closer look

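In groups of 4 to 6 lists, 7 values lay far from the others of their group, out of 31 groups of values searched. The nominal rate by chance is about 1 in 20, but it was not checked for percentiles from lists of unequal length. In the WT DMSO group, the clone 2 replicate 1 list had 22.2 locus peaks per 1000 peaks, from 1 locus peak in a list of 45. In the D538G E2 group, the clone 2 replicate 2 list had 3.54 per 1000, from 7 in a list of 1977. The best percentile of any locus peak was lowest among D538G DMSO lists in clone 3 replicate 2, at 93.1.

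The percentile of site 2 stood apart from the rest of its group at 0.322 in D538G clone 2 DMSO replicate 1 and at 36.4 in D538G clone 2 E2 replicate 2. The percentile of site 6 stood apart at 83.1 in D538G clone 3 DMSO replicate 2 and at 93.4 in D538G clone 3 E2 replicate 1.

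The mean change in presence of a peak with E2 was lower in D538G pairs than in WT pairs at 3 sites by an exact permutation test, unadjusted. The difference was −0.833 (D538G minus WT) at sites 5 and 8 and −1 at site 6. None of the 3 passed adjustment over all regions. The D538G DMSO lists already held the peak in 5, 6 and 5 of 6 lists at sites 5, 6 and 8, so these values restate the difference under DMSO and do not show a smaller response to E2.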

How the results depend on the processing

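The counts of regions with an adjusted p under 0.05 were 0 in each comparison under each alternative run. In the main fits 0% of windows and regions had an adjusted p under 0.05, so keeping to that side was largely fixed beforehand. For WT E2 against DMSO, 57.1% of windows would have needed the smallest possible p. Over the 151 alternatives of the window and region results, 146 kept their direction and side of this threshold, a count that speaks mainly of direction. The 5 that turned were all of the E2 difference in D538G. It was −0.4 without both clone 2 replicate 1 lists, and with 1 list left out it ran from −0.833 to 4.27 peaks. Dropping DMSO lists, it was −0.133 without replicate 1 of clone 2 and −0.733 without replicate 2 of clone 3. Dropping E2 lists of clone 3, it was −0.0333 without replicate 1 and −0.833 without replicate 2, and the cause was not tested. Of the 528 alternatives for single sites, 525 kept theirs. The presence of site 4 in D538G against WT under DMSO turned to −0.0833 in lists held to their 1000 strongest peaks, which removes most of a long list. The presence of site 10 in D538G against WT under E2 ran from −0.333 to 0.05 with 1 list left out.

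With the replicate block, taking E2 and DMSO libraries of 1 clone and replicate as pairs, the WT difference of 8 peaks had an exact p of 0.125 and the D538G difference of 0.833 an exact p of 0.938. No locus region reached an unadjusted p under 0.05 in either genotype under the block. The same held for 0% of all 29233 regions in WT and of all 44920 in D538G. The smallest exact p that the WT pairs can give is 0.125, so in WT no region could reach it. Genotype groups share only a replicate number. Permuting genotype within it gave an exact p of 0.0400 under DMSO and 0.32 under E2. It left 2 locus regions at an unadjusted p under 0.05 under DMSO, against 1.53% of all 32172 regions. Under E2 it left 1, against 0.551% of all 35729 regions. The lists of 45 and 51 peaks limit every statement on WT cells without hormone, and the depth behind any list is not given in the sources used here.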

Other observations

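The locus held 10 further regions with a peak in 2 to 6 lists. A region at chr2:11646149-11646692, 7.59 kb to the right of site 4, was in 6 lists, 1 of WT E2, 3 of D538G DMSO and 2 of D538G E2, with a median percentile of 11.6. A region at chr2:11722113-11723232 was in 2 WT E2, 2 D538G DMSO and 1 D538G E2 list, with percentiles from 6.22 to 80.4. Near site 10, a region at chr2:11769651-11770090 was in 6 lists, with percentiles from 50.9 to 90.0. The region closest to the right edge, at chr2:11796710-11797181, was in 5 lists, none of them WT DMSO.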
